A study of Mus musculus with 8 samples.

Results

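Toll-like receptors are the germline-encoded sensors with which dendritic cells and macrophages detect microbes, and Unc93b1 is the membrane protein that carries the nucleic acid-sensing ones from the endoplasmic reticulum to endosomes. The mouse Toll-like receptor genes Tlr1, Tlr2, Tlr3, Tlr4, Tlr6, Tlr7, Tlr8, Tlr9 and Tlr13, together with Unc93b1, are described here in cultures given S100A8/A9 or vehicle. The 10 genes were taken by symbol from the 55450 Ensembl genes listed for replicates 1 to 3, and all 10 were also among the 24848 genes listed for replicate 4. Marrow of mice with dry eye of Sjögren's syndrome, in which the immune system attacks tear and salivary glands, was cultured into cells labelled as dendritic cells. The cultures then received recombinant S100A8/A9, a protein pair that myeloid cells secrete in inflammation, or PBS as vehicle, and both groups came from diseased mice, with no healthy marrow among the libraries. Each group held 4 poly(A) RNA libraries. Mouse strain, age, dose, exposure time and whether a library came from 1 animal or a pool are not given in the sources used here, so the p-values measure only the spread between these libraries, which may be technical.

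A Toll-like receptor binds its ligand with a leucine-rich repeat domain and signals through a cytoplasmic TIR domain, which recruits the adaptors MyD88 or TRIF and leads to activation of NF-kB and of interferon regulatory factors. TLR2 pairs with TLR1 or TLR6 at the cell surface to bind bacterial lipopeptides, and TLR4 with MD-2 binds lipopolysaccharide. TLR4 is also known as a receptor for S100A8/A9. TLR3, TLR7, TLR8, TLR9 and TLR13 sense nucleic acids in endosomes and depend on UNC93B1 to get there.

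The levels are FPKM, fragments scaled to transcript length and library size, so levels can be set beside each other between genes. The authors made 2 tables, 1 for replicates 1 to 3 of both groups and 1 for replicate 4 of both groups, so tests used replicates 1 to 3 and replicate 4 is given beside them. Depth was about 33400000 reads (S100A8/A9) and 31900000 reads (vehicle) in replicate 4. Depth of replicates 1 to 3 could not be worked out, because only 5.34% to 6.15% of their low values came to whole numbers of reads. The cell type field and the titles of the libraries name different cells, dendritic cells and BMDMs. In replicates 1 to 3 the dendritic cell genes Itgax (47.2 to 62.5 FPKM in S100A8/A9 libraries, 47.6 to 66.9 FPKM in vehicle libraries) and Ccr7 were well expressed, Zbtb46 was at 2.31 to 3.62 FPKM in S100A8/A9 libraries and 2.13 to 3.33 FPKM in vehicle libraries, and Flt3 stayed under 1 FPKM. Cd209a and Siglech were listed at 0 in all 6 libraries. The macrophage gene Csf1r, at 126 to 213 FPKM in S100A8/A9 libraries and 109 to 186 FPKM in vehicle libraries, was above Itgax in each of them. Fewer cells of a type and less RNA per cell cannot be told apart in such bulk RNA.

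The 10 genes were all slightly higher on average in S100A8/A9 cultures, with Tlr3 and Tlr2 furthest apart, but no member passed the test across all genes. The fit was limma on log2(FPKM + 1), and a gene was called when its p, adjusted by Benjamini-Hochberg, was under 0.05. All 10 members reached 1 FPKM in at least 3 of the 6 libraries and were among the 11387 genes tested. With group as the only term 0 of 10 members were called, and 0% of all tested genes. With the replicate number, which each S100A8/A9 library shares with 1 vehicle library, as a block, again 0 of 10 members were called, against 59 of all genes (0.518%, with 0.501% higher). At an unadjusted p under 0.05, limma gave 1 member (Tlr2) with group only, against a background of 3.02%, and 4 members (Tlr2, Tlr3, Tlr9 and Unc93b1) with the block, against 7.97%.

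The log2 difference, S100A8/A9 minus vehicle, was above 0 for 10 of 10 members and for 59.6% of all tested genes, though Tlr13 turned to -0.0077 with upper-quartile factors and to -0.017 with quantile normalization. The members' median difference was 0.11, with a range of 0.05 to 0.42, and the median over all tested genes was 0.02, with its 5th to 95th percentile at -0.20 to 0.27. Within replicate numbers, 6 of 10 members were higher with S100A8/A9 in all 3 pairs (Tlr2, Tlr3, Tlr4, Tlr7, Tlr9 and Unc93b1) and 0 were lower in all 3, while 19.4% of all tested genes were higher and 9.62% lower in all 3. In replicate 4, 7 of 10 members were higher with S100A8/A9, and Tlr3, Tlr7 and Unc93b1 were lower. Tlr2, Tlr4 and Tlr9 were higher in all 4 pairs, as were 11.7% of the genes in both tables. Only for Tlr2 did the 2 groups of replicates 1 to 3 not overlap, which held in that direction for 4.71% of all tested genes and in the other for 1.94%.

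**Figure D1:**
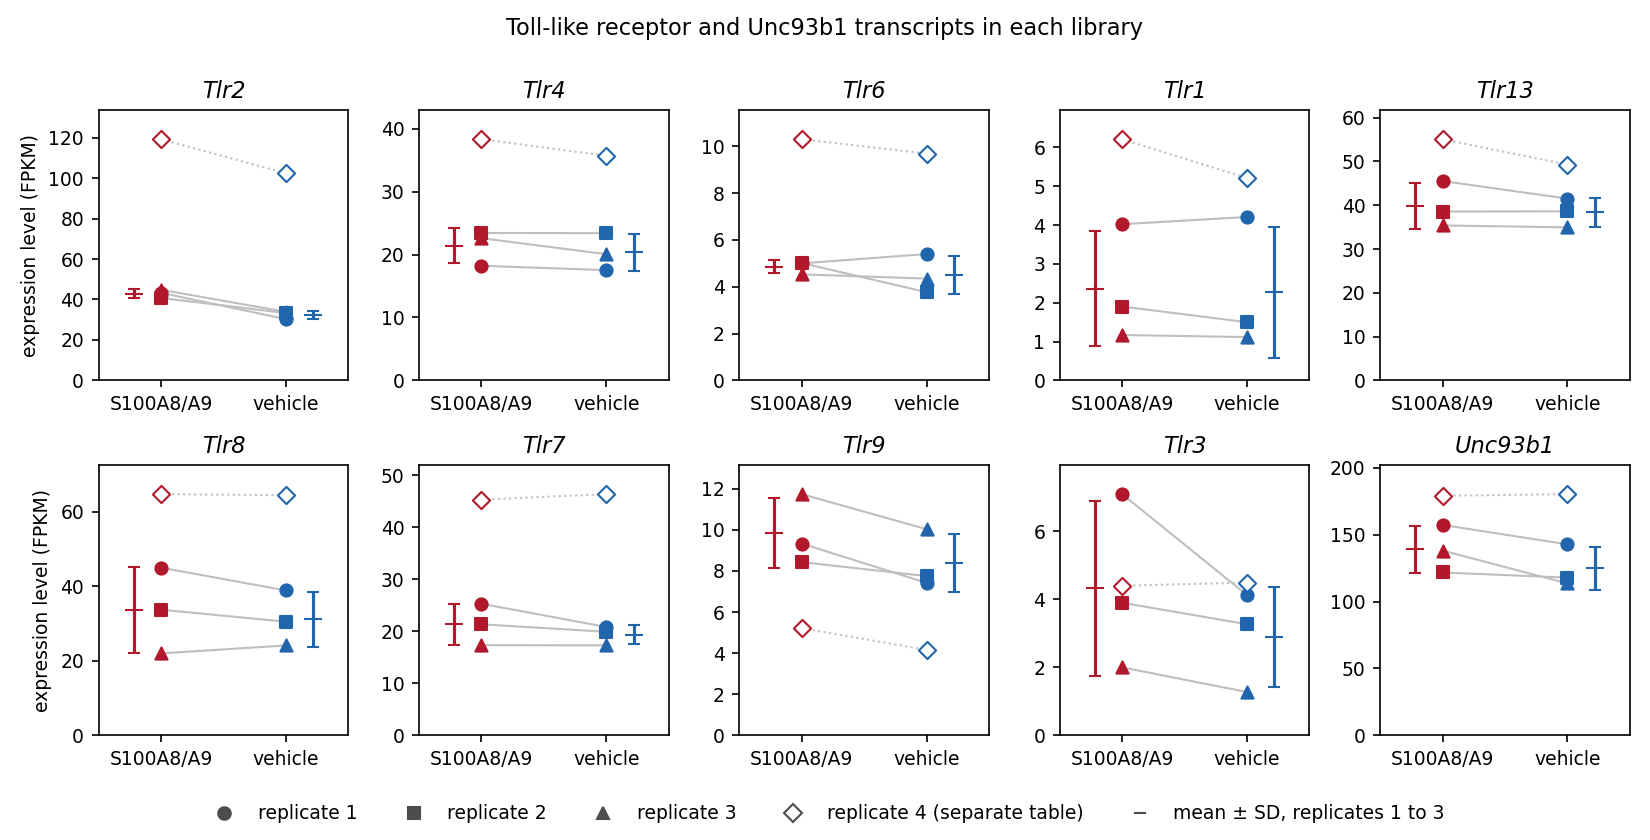
Level of each member in FPKM (vertical axes, each from 0) in S100A8/A9 libraries (left) and vehicle libraries (right). Filled points are replicates 1 to 3 with bars for their mean and SD, lines join libraries of the same number and open diamonds are replicate 4 from the separate table, and for Tlr2 the 3 filled points of S100A8/A9 lie at 40.8 to 44.8 FPKM, above the vehicle points at 30.3 to 33.9 FPKM, and for the other members the filled points of the groups overlap.

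Among members higher in all 3 pairs, Tlr2, Tlr3 and Tlr9 had a promoter in the RefSeq table (GRCm38.p6), which holds 7 of the 10 members. They are shown because the higher level with S100A8/A9 was seen in each of these 3 pairs. In replicate 4, Tlr2 and Tlr9 were higher too, and Tlr3 was lower (ratio 0.979). Each line runs 5′ to 3′ on the strand of the gene and keeps the longest run of the 250 bases before the RefSeq start that no GENCODE vM21 exon covers. Capitals mark every motif match on either strand.
Tlr2 (chr3:83841768-83841858, minus strand, upstream of the gene): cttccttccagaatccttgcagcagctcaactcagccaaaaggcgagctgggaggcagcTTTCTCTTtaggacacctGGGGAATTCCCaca
Tlr3 (chr8:45410381-45410452, minus strand, in the first intron of GENCODE transcripts that start further upstream): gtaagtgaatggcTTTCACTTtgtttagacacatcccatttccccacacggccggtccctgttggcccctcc
Tlr9 (chr9:106222348-106222597, plus strand, upstream of the gene): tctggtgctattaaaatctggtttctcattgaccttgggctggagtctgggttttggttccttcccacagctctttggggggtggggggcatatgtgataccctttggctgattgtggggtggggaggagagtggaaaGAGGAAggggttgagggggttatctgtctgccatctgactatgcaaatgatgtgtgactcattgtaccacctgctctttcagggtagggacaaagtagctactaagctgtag

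The letters searched in the whole 250 bases, on both strands, were AANNGAAA for the interferon regulatory factor core, TTCNNNGAA for the interferon-gamma activated site and GAGGAA for the core of the myeloid factor PU.1. The interferon-stimulated response element, which contains the regulatory factor core, and the NF-kB consensus were searched too. In Tlr2 the printed stretch carried the interferon regulatory factor core at positions -191 to -184 from the start, and 2 overlapping NF-kB matches between -173 and -163. A further core match of Tlr2, at -145 to -138, lies outside the printed stretch. In Tlr3 the core matched at -59 to -52, and an NF-kB match outside the printed stretch lay at -211 to -202. Tlr9 had 1 PU.1 core, at -112 to -107. Members not higher in all 3 pairs held matches too. Tlr6 had 2 response element and 4 regulatory factor core matches in 1 of its 2 promoters. Tlr1 had 1 regulatory factor core and 1 activated site in 1 promoter and 1 PU.1 core in the other. Tlr8 had 1 activated site and 1 PU.1 core, and Tlr13 had 1 PU.1 core. Of all 32851 mouse promoters of the table, 21.3% hold the interferon regulatory factor core, 3.9% the NF-kB consensus, 23.3% the PU.1 core, 2.98% the response element and 7.02% the activated site. A match describes the letters of the window, and binding was not measured.

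Of the surface receptors, Tlr2 differed most. It lies on chromosome 3 (chr3:83836272-83841767, minus strand, mm10, as are all gene positions here). Tlr2 was at 43.3, 40.8 and 44.8 FPKM in S100A8/A9 replicates 1 to 3, against 30.3, 33.3 and 33.9 FPKM in vehicle replicates 1 to 3. Every S100A8/A9 library was above every vehicle library, and the means were 43.0 ± 2.05 FPKM with S100A8/A9 and 32.5 ± 1.92 FPKM with vehicle (SD, n = 3 each). The ratios within the 3 pairs were 1.43, 1.22 and 1.32, with a geometric mean of 1.32. The log2 difference was 0.39, with a 95% interval of 0.17 to 0.62 with group only and of 0.23 to 0.55 with the block. Intervals of log2 differences, here and below, are per gene and not adjusted over all genes tested. Over 11387 genes Tlr2 did not pass limma's test, at an adjusted p of 0.828 with group only and 0.0894 with the block. The Tlr2 difference ranked 277th from the top among the genes tested. In replicate 4, Tlr2 was at 119 FPKM (12009 reads) with S100A8/A9 and 102 FPKM (9846 reads) with vehicle. That ratio was 1.16, with a 95% binomial interval of 1.13 to 1.20 that covers counting error between these libraries only.

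Tlr4 (chr4:66827584-66930284, plus strand), the lipopolysaccharide receptor, was nearly level between the groups. Its FPKM were 18.2, 23.4 and 22.6 in S100A8/A9 replicates 1 to 3, against 17.5, 23.4 and 20.1 in vehicle replicates 1 to 3. The groups overlapped, and the pair ratios were 1.04, 1.00 and 1.13. The log2 difference of Tlr4 was 0.07 with an interval of -0.26 to 0.41 with group only and of -0.09 to 0.23 with the block. Replicate 4 held 38.3 FPKM with S100A8/A9 and 35.7 FPKM with vehicle, a ratio of 1.07 (1.04 to 1.11). The ratio of Tlr2 to Tlr4 was 2.38, 1.74 and 1.98 in S100A8/A9 replicates 1 to 3, against 1.73, 1.42 and 1.69 in vehicle replicates 1 to 3, so the groups did not overlap but came close at 1.74 and 1.73. In replicate 4 that ratio was 3.11 with S100A8/A9 and 2.87 with vehicle.

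Tlr1 (chr5:64924679-64933563) and Tlr6 (chr5:64952031-64960097), both on the minus strand, are neighbours and the alternative partners of Tlr2. Tlr1 was at 4.02, 1.90 and 1.17 FPKM in S100A8/A9 replicates 1 to 3, against 4.21, 1.497 and 1.11 FPKM in vehicle replicates 1 to 3. Tlr6 was at 5.001, 5.01 and 4.53 FPKM in S100A8/A9 replicates 1 to 3, against 5.40, 3.77 and 4.35 FPKM in vehicle replicates 1 to 3. For both genes the groups overlapped and pair 1 went the other way from pairs 2 and 3, with ratios of 0.956, 1.27 and 1.05 for Tlr1 and 0.926, 1.33 and 1.04 for Tlr6. The log2 differences were 0.07 for Tlr1, with an interval of -0.89 to 1.02 with group only and of -0.21 to 0.35 with the block, and 0.10 for Tlr6, with an interval of -0.21 to 0.40 with group only and of -0.16 to 0.36 with the block. In replicate 4, Tlr1 had 6.21 FPKM with S100A8/A9 and 5.21 FPKM with vehicle, a ratio of 1.19 (1.06 to 1.33), and Tlr6 had 10.3 FPKM with S100A8/A9 and 9.69 FPKM with vehicle, a ratio of 1.06 (0.981 to 1.15). Of the 50-base stretches of Tlr1 transcripts, 15.4% also occur in other genes, most in Tlr6, and of those of Tlr6 12.3% do, so reads of the pair are partly uncertain.

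Summed over the 4 surface receptors, levels were 70.6, 71.1 and 73.1 FPKM in S100A8/A9 replicates 1 to 3, against 57.4, 62.0 and 59.4 FPKM in vehicle replicates 1 to 3. Without Tlr2 the sums were 27.2, 30.3 and 28.3 FPKM with S100A8/A9 and 27.1, 28.7 and 25.5 FPKM with vehicle, and those ranges overlapped. Tlr2 made up 61.4%, 57.3% and 61.3% of the surface sum with S100A8/A9, against 52.8%, 53.7% and 57.0% with vehicle.

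Among the endosomal receptors Tlr3 had the greatest average difference, with a wide spread. Tlr3 (chr8:45395665-45411080, minus strand) binds double-stranded RNA and signals through TRIF. It was at 7.09, 3.90 and 2.00 FPKM in S100A8/A9 replicates 1 to 3, against 4.12, 3.27 and 1.27 FPKM in vehicle replicates 1 to 3. The S100A8/A9 library was higher within each pair, by ratios of 1.72, 1.19 and 1.57, but the groups overlapped, and both were highest at number 1 and lowest at number 3. The log2 difference was 0.42, with an interval of -0.54 to 1.38 with group only and of 0.13 to 0.71 with the block. The adjusted p of limma was 1.00 with group only and 0.358 with the block. In replicate 4 the ratio was 0.979 (0.884 to 1.08), from 4.40 FPKM with S100A8/A9 and 4.49 FPKM with vehicle. The antisense gene Gm45542 overlaps 381 exon bases of Tlr3, and it was listed at 0 to 0.158 FPKM in replicates 1 to 3.

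Tlr9 (chr9:106222598-106226883, plus strand), the receptor for unmethylated CpG DNA, was at 9.33, 8.43 and 11.7 FPKM in S100A8/A9 replicates 1 to 3, against 7.42, 7.75 and 10.03 FPKM in vehicle replicates 1 to 3. The S100A8/A9 library was the higher of each pair, with ratios of 1.26, 1.09 and 1.17, and the group ranges overlapped. Replicate 4 gave the ratio 1.255 (1.11 to 1.42), from 606 reads with S100A8/A9 and 461 reads with vehicle. The log2 difference of Tlr9 was 0.20, with an interval of -0.16 to 0.57 with group only and of 0.02 to 0.39 with the block, and limma's adjusted p was 1.00 with group only and 0.569 with the block.

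Tlr7 (chrX:167304929-167330558) and Tlr8 (chrX:167242696-167264329), both on the minus strand, are adjacent relatives, and Tlr7 responds to single-stranded RNA and its breakdown products. Tlr7 was at 25.3, 21.3 and 17.3 FPKM in S100A8/A9 replicates 1 to 3, against 20.8, 19.9 and 17.3 FPKM in vehicle replicates 1 to 3. Tlr8 was at 45.0, 33.7 and 21.95 FPKM in S100A8/A9 replicates 1 to 3, against 38.8, 30.5 and 24.1 FPKM in vehicle replicates 1 to 3. Groups overlapped for both genes. The pair ratios were 1.21, 1.07 and 1.003 for Tlr7 and 1.16, 1.11 and 0.911 for Tlr8. Replicate 4 held 45.3 FPKM of Tlr7 with S100A8/A9 and 46.4 FPKM with vehicle, and 64.7 FPKM of Tlr8 with S100A8/A9 and 64.4 FPKM with vehicle, and both counting intervals spanned a ratio of 1. The log2 differences were 0.12 for Tlr7, with an interval of -0.23 to 0.47 with group only and of -0.06 to 0.30 with the block, and 0.07 for Tlr8, with an interval of -0.56 to 0.70 with group only and of -0.12 to 0.27 with the block.

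Tlr13 (chrX:106143204-106160493, plus strand), which recognises bacterial ribosomal RNA in mice, was at 45.5, 38.6 and 35.4 FPKM in S100A8/A9 replicates 1 to 3, against 41.5, 38.6 and 35.0 FPKM in vehicle replicates 1 to 3. The groups overlapped, with ratios of 1.10, 0.999 and 1.01, and the log2 difference was 0.05, with an interval of -0.24 to 0.34 with group only and of -0.10 to 0.19 with the block. In replicate 4 it was 55.1 FPKM with S100A8/A9 and 49.3 FPKM with vehicle, a ratio of 1.12 (1.08 to 1.15).

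Unc93b1 (chr19:3935186-3949340, plus strand) was the most abundant member in every library. It was at 157, 122 and 138 FPKM in S100A8/A9 replicates 1 to 3, against 143, 118 and 114 FPKM in vehicle replicates 1 to 3. The S100A8/A9 library was the higher of each pair, with ratios of 1.10, 1.03 and 1.22, and the group ranges overlapped. The log2 difference was 0.16, with an interval of -0.17 to 0.48 with group only and of 0.0036 to 0.31 with the block, and limma's adjusted p was 1.00 with group only and 0.610 with the block. In replicate 4 Unc93b1 was at 179 FPKM with S100A8/A9 and 180.4 FPKM with vehicle, a ratio of 0.993 (0.973 to 1.01). Per summed FPKM of the 5 endosomal receptors it carries, Unc93b1 stood at 1.19, 1.15 and 1.56 in S100A8/A9 replicates 1 to 3, against 1.27, 1.18 and 1.30 in vehicle replicates 1 to 3, and these values overlapped.

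**Figure D2:**
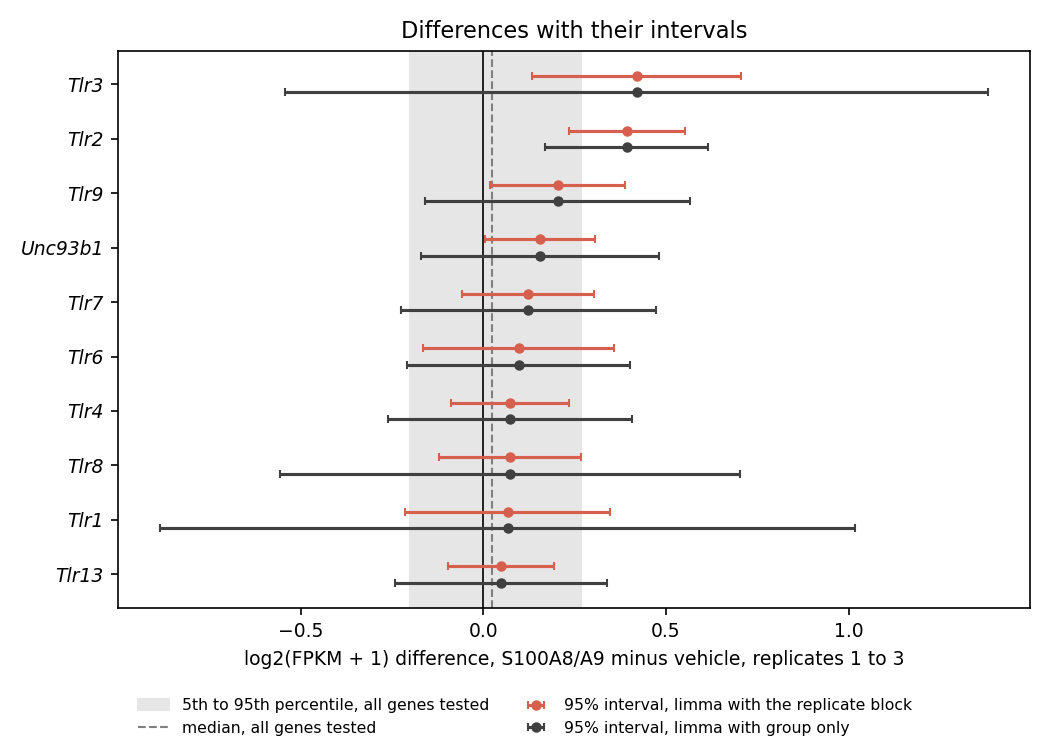
Difference of log2(FPKM + 1), S100A8/A9 minus vehicle, for each member over replicates 1 to 3 (horizontal axis), where points are limma estimates with 95% intervals, red with the replicate block and grey with group only, the shaded band is the 5th to 95th percentile of all 11387 tested genes and the dashed line their median. Tlr3 at 0.42 and Tlr2 at 0.39 lie right of the band, and the group-only interval of Tlr3 runs from -0.54 to 1.38. The intervals are per gene and not adjusted over all genes tested.

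In level, the order from Unc93b1 down was Tlr2, Tlr13, Tlr8, Tlr4, Tlr7, Tlr9, Tlr6, Tlr3 and Tlr1 by mean FPKM in S100A8/A9 replicates 1 to 3. In vehicle the order was the same except that Tlr13 came before Tlr2. With S100A8/A9, Unc93b1 was separate from Tlr2, Tlr7 from Tlr9 and Tlr9 from Tlr6, while each other neighbouring pair overlapped in range. With vehicle, Tlr2 and Tlr8, Tlr4 and Tlr7, Tlr6 and Tlr3, and Tlr3 and Tlr1 overlapped in range, and the other neighbours did not. By mean level over replicates 1 to 3, Unc93b1 stood at percentile 97.8 of the tested genes, Tlr13 at 91.8 and Tlr2 at 91.4, against 30.8 for Tlr3 and 19.1 for Tlr1. The remaining mouse receptors Tlr5, Tlr11 and Tlr12 did not reach the minimum for testing, and Tlr12 in S100A8/A9 replicate 3 was the highest of their values at 0.587 FPKM.

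Replicate 4 differed in level from replicates 1 to 3 for several members, in both groups. Against the mean of replicates 1 to 3, the replicate 4 mean was 2.94-fold for Tlr2, 2.46-fold for Tlr1, 2.26-fold for Tlr7, 2.14-fold for Tlr6 and 2.00-fold for Tlr8. Tlr9 went the other way, at 0.514-fold, and the median over 11180 genes in both tables was 1.04-fold. Because the tables were made separately, the library and the processing of the table cannot be told apart here.

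For 9 of 10 members, more of the spread in replicates 1 to 3 went with the replicate number than with the treatment. The number has more levels than the treatment, so random spread alone gives it the larger share on average. In limma with group kept in the model, the replicate number term called 3 of 10 members, Tlr1 (adjusted p 0.00817), Tlr3 (0.00827) and Tlr8 (0.0104), and 12.7% of all tested genes. This test was added after the values were seen, and without the filter on low values it called 0 members. All 3 were highest in replicate 1 and lowest in replicate 3 in both groups. The numbers accounted for 98.5% of the variance of log2(FPKM + 1) of Tlr1, 94.7% for Tlr8 and 84.5% for Tlr3. For Tlr2 the number accounted for 4.48% and the treatment for 90.9%, the reverse of the other 9 members, for each of which the number accounted for more than the treatment. For Tlr6 the number accounted for 46.5%, and the number term was not called (limma adjusted p 0.453). The member median was 81.8% for the number and 11.9% for the treatment, beside 63.6% and 6.96% over all tested genes.

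The summed macrophage markers, with 10 of 10 genes tested, had the same order of replicate numbers. They came to 1236, 785 and 612 FPKM in S100A8/A9 replicates 1 to 3, against 1212, 788 and 564 FPKM in vehicle replicates 1 to 3. The complement gene C1qa was at 36.6, 11.2 and 7.60 FPKM with S100A8/A9, against 32.3, 10.6 and 6.86 FPKM with vehicle. That order was not particular to macrophage markers. The pan dendritic cell markers H2-Ab1, Cd74 and Ciita and the protease gene Ctsl had it in both groups. Itgax, Zbtb46, Batf3 and Ccr7, the other tested pan dendritic cell markers, did not have it in both. The summed neutrophil markers, of which 4 of 12 were tested, were 124, 130.3 and 216 FPKM with S100A8/A9, against 123.4, 122 and 224 FPKM with vehicle, and the granulocyte gene Ly6g stayed at 0.240 to 0.556 FPKM with S100A8/A9 and 0.269 to 0.636 FPKM with vehicle. The higher sum at number 3 came from S100a8 and S100a9. Mmp8 was highest at number 1, at 98.3, 60.5 and 72.0 FPKM with S100A8/A9, against 98.5, 59.8 and 68.5 FPKM with vehicle, and so was Csf3r, at 10.1, 6.45 and 6.67 FPKM with S100A8/A9, against 11.6, 6.19 and 4.59 FPKM with vehicle. The part of cell makeup in the levels of Tlr1, Tlr3 and Tlr8 was not tested. Between treatments, no macrophage marker was called in either fit.

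**Figure D3:**
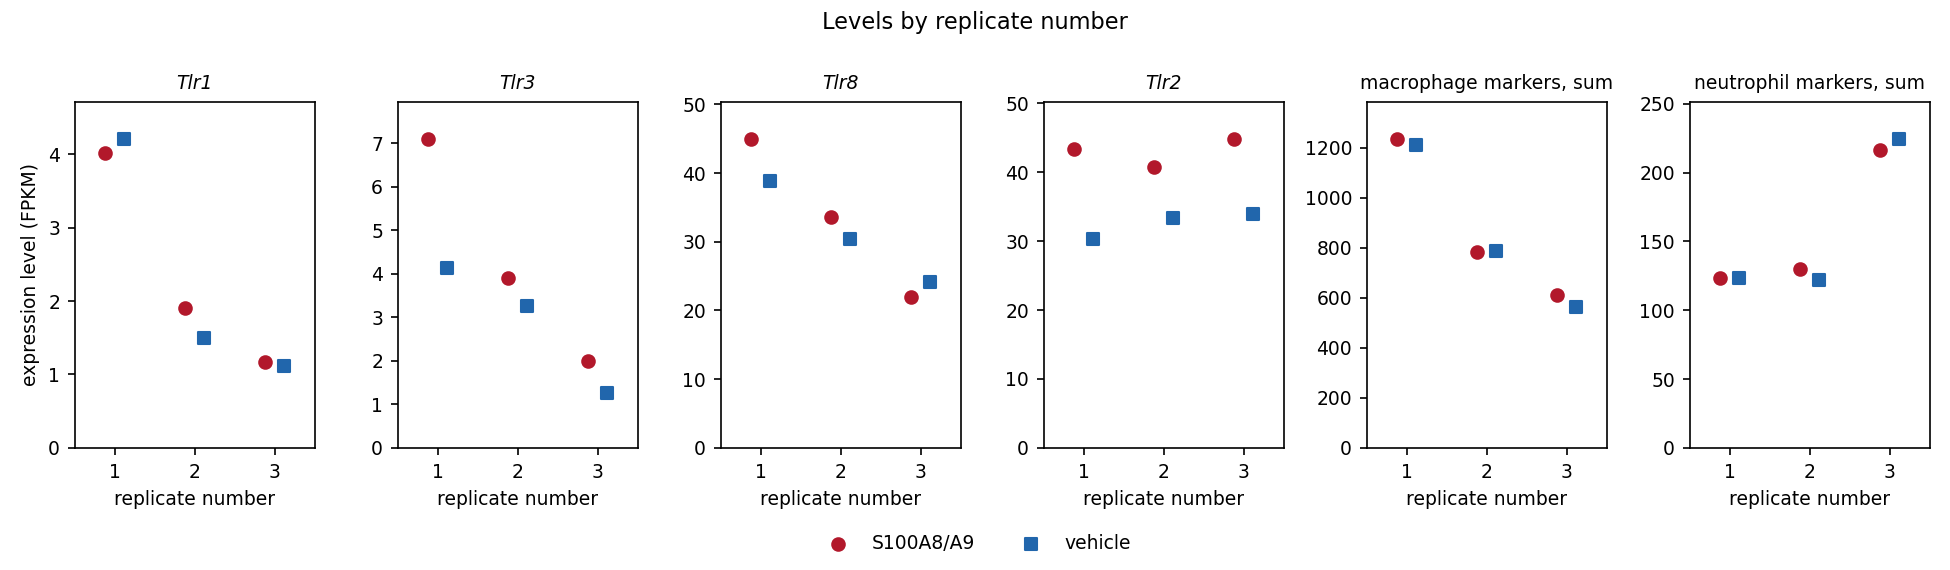
FPKM (vertical axes, from 0) of Tlr1, Tlr3, Tlr8 and Tlr2 and of summed marker genes by replicate number (horizontal axis, 1 to 3), with S100A8/A9 and vehicle libraries drawn separately. Tlr1, Tlr3 and Tlr8 are highest at number 1 and lowest at number 3 in both groups, whereas Tlr2 separates by treatment at each number.

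Pathway genes around the receptors were read from 7 lists, the remaining Toll-like receptors included, with 74 genes of which 68 were tested. Of these 68, 0 were called with group only and 0 with the block, beside 0% and 0.518% of all tested genes. In all 3 pairs, 27 of the 68 were higher and 1, Ripk1, was lower, beside 19.4% and 9.62% of all tested genes. The median log2 difference of the 68 was 0.09, beside 0.02 over all tested genes. Each gene named next had the smallest unadjusted p of its list in the blocked fit.

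Irf7, the interferon regulatory factor that TLR7 and TLR9 activate through MyD88, came nearest to a call. Irf7 also belongs to the list of interferon-stimulated genes below, which was chosen with its direction in these libraries known. It was at 51.8, 32.4 and 20.9 FPKM in S100A8/A9 replicates 1 to 3, against 17.1, 18.1 and 12.5 FPKM in vehicle replicates 1 to 3, a 2.09-fold geometric mean with an adjusted limma p of 0.0684 in the blocked fit. All S100A8/A9 libraries of these numbers were above all vehicle libraries, which held for 4.71% of all tested genes. In replicate 4 it was 8.88 FPKM with S100A8/A9 and 5.72 FPKM with vehicle.

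Myd88, the adaptor of every receptor here except Tlr3, was at 19.4, 19.9 and 18.9 FPKM in S100A8/A9 replicates 1 to 3, against 15.1, 16.0 and 15.7 FPKM in vehicle replicates 1 to 3. The groups did not overlap, as for 4.71% of all tested genes in that direction. The geometric mean ratio was 1.24 and the blocked adjusted p of limma 0.195. The co-receptor list was led by Ly86, which encodes the MD-1 partner of CD180, at 11.4, 5.36 and 6.91 FPKM with S100A8/A9 against 7.26, 4.40 and 5.55 FPKM with vehicle (blocked adjusted p of limma 0.335), and the groups overlapped. Cyld, a deubiquitinase that restrains NF-kB, led the negative regulators at 7.70, 6.47 and 7.72 FPKM with S100A8/A9 against 4.98, 5.22 and 6.77 FPKM with vehicle, which overlapped (0.400 in that fit).

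Ripk1, a kinase of the NF-kB and cell death pathways, was lower in each pair, at 11.5, 13.7 and 13.7 FPKM with S100A8/A9 against 13.5, 15.7 and 15.7 FPKM with vehicle, with a log2 difference of -0.19 and a blocked adjusted p of limma of 0.502. Among folding and trafficking genes, with a median difference of 0.02, Sdcbp, which encodes the scaffold protein syntenin and helps Unc93b1 control Tlr7, led at 115, 97.3 and 96.8 FPKM with S100A8/A9 against 98.9, 96.0 and 92.0 FPKM with vehicle (0.788 in that fit). Across lists the medians were 0.14 for transcription factors, 0.12 for kinases and ubiquitin ligases and 0.09 each for co-receptors, adaptors and negative regulators.

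The interferon-stimulated genes, a downstream read-out of several Toll-like receptors and of other sensors, were set beside the members by pair. The route to them was not tested. All 20 genes of the list were higher with S100A8/A9 in all 3 pairs, and 14 rose in the blocked limma fit, which called 0.501% of all tested genes as higher, against 0 with group only. The blocked fit called 3 genes in all, Ifit1, Rtp4 and Usp18, under median-of-ratios, upper-quartile or quantile scaling, and 5 genes in all without replicate 3. It called 0 genes without the filter on low values (smallest adjusted p 0.755) and 0 over all 8 libraries (smallest adjusted p 0.107). The summed FPKM of the 20 listed genes had ratios of 3.17, 2.23, 1.89 and 1.17 in replicates 1 to 4. In the same order Tlr2 had 1.43, 1.22, 1.32 and 1.16 and Tlr3 had 1.72, 1.19, 1.57 and 0.979. The list was chosen with its direction in these libraries known, so its count is not independent evidence of that direction.

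**Figure D4:**
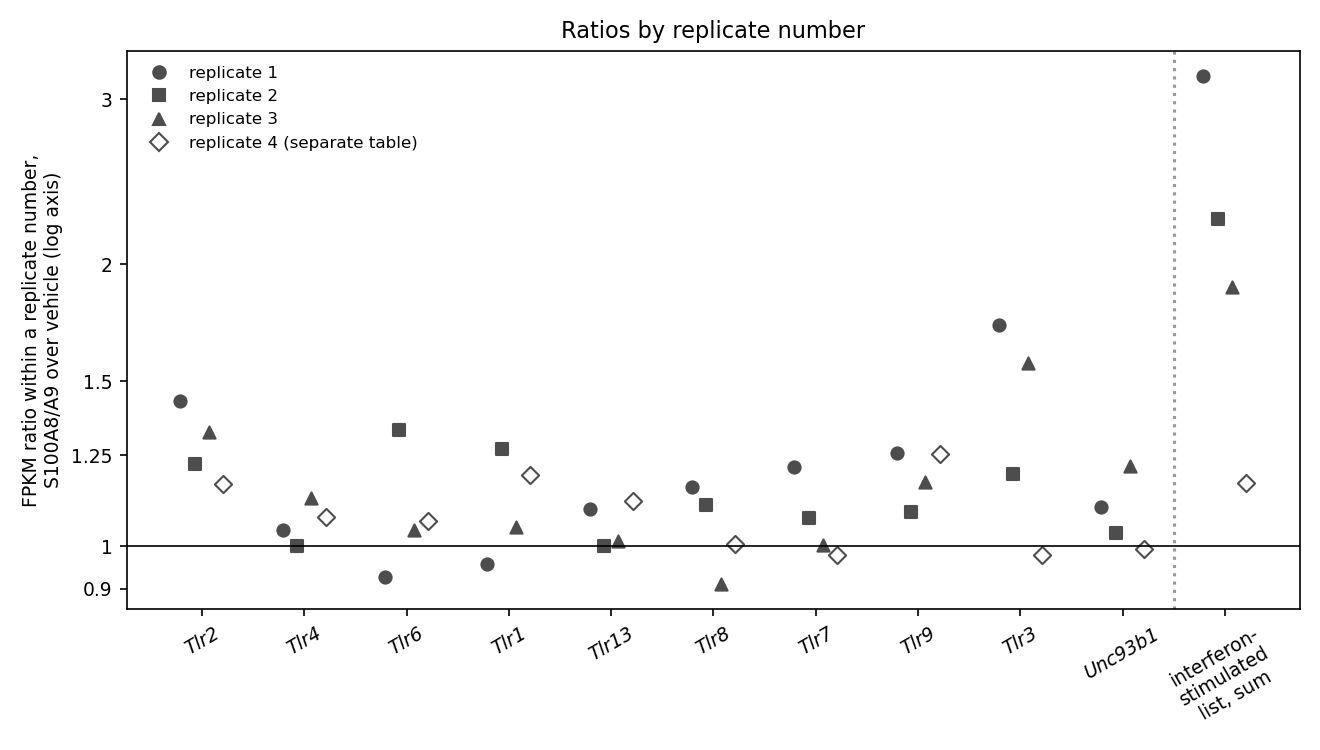
Ratio of FPKM, S100A8/A9 over vehicle, within each replicate number (vertical log axis) for each member and for the sum of the 20 interferon-stimulated genes. With filled symbols for replicates 1 to 3 and open diamonds for replicate 4, the 4 ratios of Tlr2 lie between 1.16 and 1.43, and those of the list sum are 3.17, 2.23, 1.89 and 1.17.

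For each member, the genes of most similar pattern over the 6 libraries were found among 6453 genes that averaged 5 FPKM or more, by the root mean square difference of log2(FPKM + 1) after centring each gene. Nearest to Tlr2 were Camkk2 (0.043), Rnf31 (0.051) and Tapbp (0.065). Nearest to Tlr3 were Fabp4 (0.138), Ms4a6d (0.152) and Fcgr1 (0.170), farther than for any other member. Tlr8 had Ccl2 (0.069), Atp6v0d2 (0.076) and Pon3 (0.086) as its nearest genes, and Tlr1 had Ear-ps2 (0.045), Rnase2a and Plxdc2. The nearest gene was Nubp2 (0.034) for Tlr4, Tusc3 (0.041) for Tlr6, Qdpr (0.034) for Tlr7, Uap1 (0.030) for Tlr9, Il18bp (0.024) for Tlr13 and Neurl3 (0.034) for Unc93b1. Genes with little variation between libraries are close to many others by this measure.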

How the data were processed

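Per the labels' protocols, libraries were made from fragmented poly(A) RNA for Illumina sequencing, and no strand marking is stated. HISAT2, Subread with featureCounts, the mm10 build and DESeq2 1.34.0 appear in the submitters' processing notes. The deposited values are FPKM, in 2 separately made tables, and the unit was worked out from the numbers since the headers are silent on it. The FPKM were used as deposited. In replicate 4, 98.8% (S100A8/A9) and 98.5% (vehicle) of low values were whole reads within 0.01 reads, against 5.34% to 6.15% in replicates 1 to 3, so no count test was run.

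Limma 3.58.1 in R 4.3.3 was fitted to log2(FPKM + 1) of replicates 1 to 3, keeping genes that reached 1 FPKM in 3 or more of 6 libraries, with two-sided p-values adjusted over all genes tested. This scale understates changes of low genes. Same-numbered libraries deviated together from their group means, with correlations over genes of 0.595, 0.254 and 0.520. Between different numbers the correlations were -0.531 to -0.010. Centring on group means makes these negative where same-number ones are positive, so they are not separate evidence. Numbers were therefore taken to pair libraries from the same-number values in these same data, though the meaning of a number is not stated. Intervals for reads are exact binomial at 95% and cover counting error only. Positions are from GENCODE vM21 and promoters from RefSeq. The members and lists were chosen with earlier results of these data known. Named pathway genes are called ones or else the smallest blocked p of a list, and 3 most similar genes were found per member.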

Additional observations from a re-analysis of the deposited data

Results flagged for a closer look

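With all 4 libraries of each group, 20 groups (10 genes in 2 treatments) were examined for 1 library apart from the others, and 4 groups had one, each time replicate 4. Chance gives about 1 in 20 groups. Tlr2 stood apart in both treatments, at 119 FPKM in S100A8/A9 replicate 4 and 102 FPKM in vehicle replicate 4. Tlr6 stood apart at 10.3 FPKM in S100A8/A9 replicate 4, and Tlr7 at 46.4 FPKM in vehicle replicate 4. Replicate 4 comes from the separately made table, and the part of that table's processing in these values was not tested.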

How the results depend on the processing

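No member was called under any of the 25 alternatives to the fit with group only. Of 250 member differences under them, 234 kept their direction and 16 turned. Tlr2, Tlr3, Tlr9 and Unc93b1 kept theirs throughout, with Tlr2 between 0.33 and 0.45 on the log2 scale at adjusted p of 0.0894 to 1.00. Turned values came mostly from leaving out 1 library or pair, and the lowest were -0.27 for Tlr1 (up to 0.46), -0.024 for Tlr4 (up to 0.18), -0.022 for Tlr6 (up to 0.21), -0.0032 for Tlr7 (up to 0.26), -0.16 for Tlr8 (up to 0.34) and -0.049 for Tlr13 (up to 0.13). Tlr13 also turned to -0.0077 under upper-quartile scaling and to -0.017 under quantile normalization, with and without the block. In the blocked fit without replicate 2, Tlr1 was at -0.0084, and without vehicle replicate 2 Tlr6 was at -0.0017. The cause was not tested.

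Limma called 0 of all genes with group only and 59 with the replicate block, but 0 with the block over all 8 libraries and 0 with the block and no filter on low values (smallest adjusted p of 0.107 and 0.755, with 931 and 1371 genes at an unadjusted p under 0.05). With the block, leaving out 1 pair gave 5 (without replicate 3), 42 (without replicate 1) or 95 (without replicate 2), a common FPKM sum 39, and median-of-ratios, upper-quartile or quantile scaling 3 each. Leaving out vehicle replicate 2 without the block gave 1 gene. The replicate number term called 3 members and 1450 genes, 0 members and 18 genes without the filter, and 5 members with median-of-ratios or upper-quartile factors, alternatives added after the data were seen. The cause was not tested. Depth of replicates 1 to 3 is not known, and in replicate 4 the fewest reads of a member were 461, for Tlr9 in vehicle. With group only, the unadjusted 95% interval of each member except Tlr2 spans 0.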

Other observations

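Markers of other marrow cells were summed in replicates 1 to 3, and no gene of these lists was called in either limma fit. Pan dendritic cell markers came to 4744, 3410 and 3411 FPKM with S100A8/A9, against 4714, 3364 and 3145 FPKM with vehicle. Monocyte markers came to 499.6, 549.7 and 446 FPKM with S100A8/A9, against 469.7, 526 and 504 FPKM with vehicle. Plasmacytoid dendritic cell markers came to 82.9, 61.3 and 59.8 FPKM with S100A8/A9, against 55.0, 58.0 and 42.5 FPKM with vehicle, with 3 of 7 genes tested. Most of that sum was Bst2, which is also interferon-inducible, at 71.5, 50.6 and 50.4 FPKM with S100A8/A9, against 43.6, 44.3 and 34.4 FPKM with vehicle. The other tested genes of the list, Tcf4 and Cox6a2, both had log2 differences of -0.02, and Siglech was listed at 0. Markers of conventional dendritic cells were at 50.1 to 72.5 FPKM with S100A8/A9 and 52.0 to 63.4 FPKM with vehicle for the cross-presenting type, whose Xcr1 and Clec9a stayed at or under 0.289 FPKM, and at 276 to 337 FPKM with S100A8/A9 and 261 to 329.5 FPKM with vehicle for the other type. Erythroid markers stood out by number, at 4.59, 7.58 and 115 FPKM with S100A8/A9, against 3.21, 9.56 and 129 FPKM with vehicle. T and NK cell markers were at 10.7 to 13.97 FPKM with S100A8/A9 and 11.9 to 15.4 FPKM with vehicle, and no B cell, mast cell or stromal marker reached the minimum for testing.

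S100a8, the gene of 1 subunit of the added protein and a neutrophil marker, was at 11.4, 52.5 and 113 FPKM in S100A8/A9 replicates 1 to 3, against 9.72, 44.1 and 125 FPKM in vehicle replicates 1 to 3. S100a9 was at 1.88, 7.71 and 21.3 FPKM with S100A8/A9, against 1.36, 8.02 and 21.6 FPKM with vehicle. For both genes the groups overlapped, and number 1 was lowest and number 3 highest in each group, the opposite order to Tlr1, Tlr3 and Tlr8.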
